A study of Mus musculus with 14 samples.

Results

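The 10 genes described here encode enzymes that make serine, glycine, proline and asparagine, together with Chac1, an enzyme that degrades glutathione, and Trib3, a pseudokinase. All are known from mouse or human cells as genes that the stress-induced transcription factor ATF4 can raise. They were chosen by symbol (Phgdh, Psat1, Psph, Shmt2, Mthfd2, Aldh18a1, Pycr1, Asns, Chac1 and Trib3). Each symbol matched 1 of the 45706 genes in each of the 2 deposited tables, and all 10 genes passed the filter on low counts in both tables. In the GENCODE annotation of GRCm38 they lie apart from each other, with Phgdh at chr3:98313170-98339990, Psph at chr5:129765558-129787449, Shmt2 at chr10:127517123-127522444 and Pycr1 at chr11:120635712-120643769. Asns (chr6:7675169-7693254) and Mthfd2 (chr6:83305691-83325908) share a chromosome, as do Psat1 (chr19:15904678-15947337) and Aldh18a1 (chr19:40550257-40588463), and Chac1 (chr2:119351229-119354381) and Trib3 (chr2:152337422-152344032). Chac1 is the one gene of the 10 on the plus strand.

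Transcript levels were measured by RNA sequencing in 14 libraries of mouse blood-forming cells, in 6 groups that compare deletion of Prmt5, the gene for a protein arginine methyltransferase, with intact Prmt5. LK KO (n = 3) and LK WT (n = 3) were sorted LK cells taken on day 7 after poly(I:C), which was given to both groups. KO mice carried PRMT5fl/fl alleles and Mx1-cre, which is induced through interferon signalling, and WT mice carried PRMT5fl/fl alleles alone. The other 4 groups were E14.5 fetal liver cells, namely Ter119pos KO, Ter119pos WT, Ter119neg KO and Ter119neg WT (n = 2 each). Ter119 is a surface antigen of maturing erythroid cells. Fetal KO mice carried PRMT5fl/fl alleles and Vav-cre, which is expressed throughout blood cells, and fetal WT mice carried PRMT5fl/fl alleles alone. The floxed alleles were thus shared by all 6 groups, and no Cre-only control was analysed here. Mice 1 and 2 gave both KO fractions and mouse 4 gave both WT libraries with the letter B. The Ter119pos WT library A came from mouse 5 and the Ter119neg WT library A from mouse 3. For LK libraries the labels name no mice, so p-values there measure only the spread between the libraries, which may be technical.

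Serine is made from a glycolytic intermediate by Phgdh, Psat1 and Psph in that order. Shmt2 then splits it in mitochondria into glycine and a one-carbon unit that Mthfd2 carries on folate towards purine synthesis, and glycine is also the starting point of heme. Proline is made from glutamate through Aldh18a1 and Pycr1, and Asns makes asparagine from aspartate and glutamine. These genes are textbook outputs of the integrated stress response, in which a kinase phosphorylates the initiation factor eIF2, general translation falls and ATF4 is translated more. In erythroid cells the main such kinase is HRI, the product of Eif2ak1, which is restrained by heme. Chac1 and Trib3 are late outputs of the same response, and Trib3 feeds back on ATF4.

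ATF4 binds with a C/EBP partner to a composite element read here as TGATGNAA. The promoter windows of the 10 genes were searched for it on both strands, and the matches are shown because they are the element through which ATF4 is known to act. In RefSeq promoters of GRCm38.p6 (250 bases before to 50 after each start, 300 in all), 1304 of 32851 windows (3.97%) held the element. Among the 10 genes, which have 11 such windows, Asns, Pycr1, Chac1 and Trib3 held it and the other 6 did not. Each line is written 5′ to 3′ on the strand of the gene, with the element in capitals.
Asns: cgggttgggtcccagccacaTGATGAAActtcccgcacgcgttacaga
Pycr1: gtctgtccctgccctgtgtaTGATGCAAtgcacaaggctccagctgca
Chac1: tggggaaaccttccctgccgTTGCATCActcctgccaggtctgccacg
Trib3: tagctcaggtTTACATCAgccgggcggg

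The Asns stretch lies at chr6:7693205-7693252 on the minus strand, with its element 23 bases before the start of transcription in RefSeq, which lies 45 bases inside the GENCODE gene, so the element is within the GENCODE limits of Asns. The Pycr1 stretch lies at chr11:120643824-120643871 on the minus strand, 103 bases before the RefSeq start, and holds the element as TGATGCAA. In Chac1, at chr2:119351029-119351076 on the plus strand, the same 8 letters stand in reverse complement 193 bases before the RefSeq start. The Trib3 match, at chr2:152344029-152344056 on the minus strand, is also a reverse complement (TGATGTAA) and lies 14 bases after the RefSeq start, which is 28 bases upstream of the GENCODE gene, so the element is outside the GENCODE limits of Trib3. A match is a description of these windows only, and its absence from the other 6 genes says only that these letters are not in 300 bases. Among the 4 genes with the element, the log2 fold change of KO over WT was 1.24 to 1.39 for Trib3, -1.90 to -0.25 for Pycr1, -1.92 to -0.27 for Chac1 and -0.10 to 0.29 for Asns over LK, Ter119pos and Ter119neg cells. Trib3 was called in both fetal fractions, which share mice 1, 2 and 4, Pycr1 in LK and Ter119neg cells, and Chac1 and Asns in no comparison of KO with WT. The LK value of Trib3 is a description only, since Trib3 passed the filter on low counts there through the KO libraries alone. That of Chac1 is one too, since its LK KO libraries alone would not have passed.

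Total counts were 19514550 to 30976961 per LK library, 19880052 to 29652947 per Ter119pos library and 22381074 to 27620734 per Ter119neg library. The targeted gene Prmt5 was called lower in KO in LK, Ter119pos and Ter119neg cells, as the labels have it. It averaged 11.5 ± 0.903 CPM (counts scaled to the library total after TMM adjustment of that total) in LK KO and 81.0 ± 25.5 in LK WT (SD, n = 3 each), 4.28 ± 0.903 in Ter119pos KO and 15.7 ± 2.79 in Ter119pos WT, and 4.38 ± 0.179 in Ter119neg KO and 52.0 ± 0.347 in Ter119neg WT (SD, n = 2 each). Summed erythroid markers (7 measured genes) were 173544 to 249410 CPM in Ter119pos libraries and 339 to 945 in Ter119neg libraries, and progenitor markers (7 genes, Kit and Mpo among them) 6502 to 16961 CPM in LK libraries. Some libraries stood apart. The LK libraries with the letter B gave 23.4% (KO) and 18.0% (WT) of their counts to Rn18s-rs5, a ribosomal RNA gene, against 0.274% at most elsewhere. The LK libraries with the letter C held 335.9 (KO) and 773.7 CPM (WT) of Xist together with the Y-linked Ddx3y, and mouse 2 was the one fetal animal with Xist (371.7 CPM or more) and no Ddx3y.

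**Figure D1:**
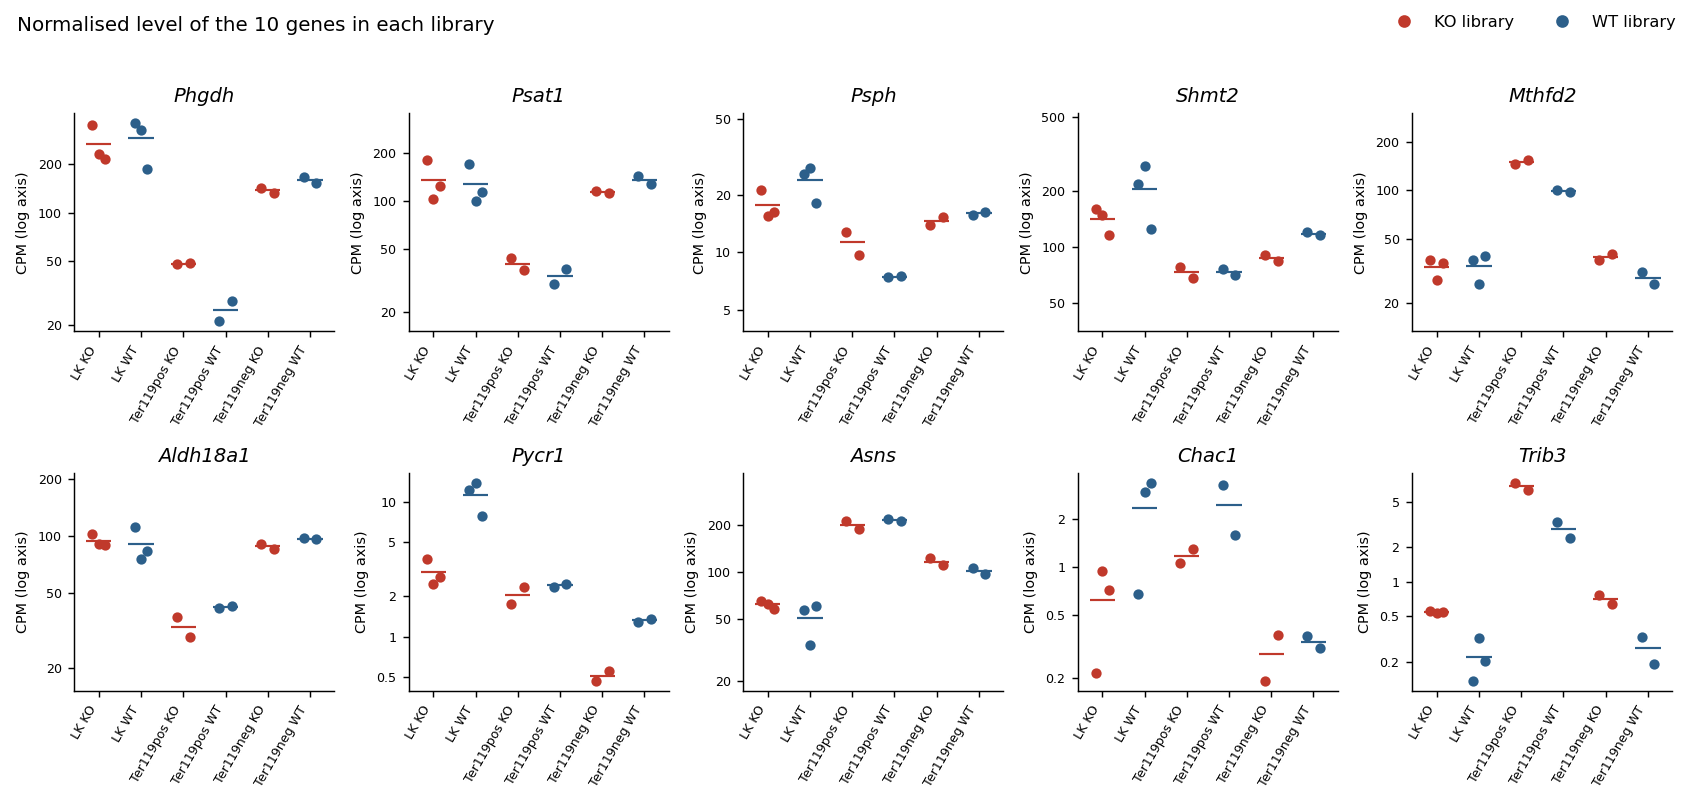
Level of each of the 10 genes in every library, in TMM-normalised CPM on a logarithmic axis, with KO libraries in red and WT libraries in blue. Each point is 1 library and each line a group mean. LK and fetal libraries were normalised separately. Phgdh, Psat1, Psph and Aldh18a1 sit lower in Ter119pos than in Ter119neg libraries, and Mthfd2, Asns, Chac1 and Trib3 sit higher, in both genotypes.

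Per kilobase of the longest annotated transcript, which allows levels of different genes to be compared, the order of the 10 genes differed between the cell populations. Phgdh led in LK KO (141 CPM per kb), LK WT (154), Ter119neg KO (72.7) and Ter119neg WT (84.5). In Ter119pos libraries Asns led instead, with 99.5 CPM per kb in KO and 107 in WT, Mthfd2 came next with 71.6 in KO and 47.3 in WT, and Shmt2 followed with 32.0 in KO and 32.1 in WT. Phgdh, the first enzyme of serine synthesis, came after these there, at 25.5 CPM per kb in KO and 13.1 in WT. Among the neighbours in Ter119pos WT, Phgdh (11.1 to 14.98), Psat1 (11.4 to 14.3) and Aldh18a1 (11.8 to 12.1) overlapped between libraries and cannot be ordered. In Ter119neg WT the same held for Psat1 (49.1 to 54.5), Shmt2 (50.8 to 52.4) and Asns (48.4 to 52.5). Pycr1, Chac1 and Trib3 took the last 3 places in every group and never passed 3.88 CPM per kb on average. Psph stood seventh in all 6 groups.

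In LK cells 1 of the 10 genes was called between KO and WT (adjusted p under 0.05): Pycr1, the mitochondrial enzyme of the last step of proline synthesis, fell. Of all 13771 genes tested there, 1.82% were called, 1.15% higher and 0.661% lower. The median log2 fold change, KO over WT, was -0.08 over the 10 genes and -0.09 over all genes tested. LK libraries that share a letter deviated together from their group means, so values from a model with the letter as a block are given where they change a call. That model called 22.7% of all genes tested (9.9% higher and 12.8% lower) and 2 of the 10 genes, Pycr1 and Chac1, both lower. The call of Chac1 is a description only, as set out below.

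Pycr1 had 3.79, 2.48 and 2.76 CPM in LK KO libraries A, B and C, against 12.2, 13.9 and 7.90 CPM in LK WT libraries A, B and C. Every KO library lay below every WT library, and the KO mean was 3.73-fold lower (log2 fold change -1.90, SE 0.32, edgeR adjusted p = 0.0380). With the letter block the log2 fold change was -1.86 (edgeR adjusted p = 0.00395). Without WT library A, or without any 1 of the 3 KO libraries, the edgeR adjusted p was 0.137 to 0.164, and without both B libraries or both C libraries it was 0.126 and 0.146. The log2 fold change stayed between -2.10 and -1.57 in these 6 cases.

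Chac1, the glutathione-degrading enzyme, had 0.216, 0.937 and 0.711 CPM in LK KO libraries A, B and C, against 0.676, 2.92 and 3.35 CPM in LK WT libraries A, B and C. In each letter the KO library was the lower one, and letter A was low in both genotypes, so the groups overlapped. The difference (log2 fold change -1.92, SE 0.74) was not called by itself (edgeR adjusted p = 0.245) and was called with the letter block (-1.89, edgeR adjusted p = 0.0101). Chac1 had 7, 14 and 25 counts in LK KO libraries A, B and C, against 25, 36 and 115 in LK WT. The KO libraries alone would not have carried it through the low count filter, since library A was too low. Its call with the block is therefore a description only. Trib3 had 0.555, 0.535 and 0.540 CPM in LK KO, against 0.135, 0.324 and 0.204 CPM in LK WT. All 3 KO libraries lay above all 3 WT libraries, but these levels rest on 8 to 19 counts per KO library and 4 to 7 per WT library. Trib3 passed the low count filter in LK cells through the KO libraries alone. Its separation there is therefore a description only. The log2 fold change of Trib3 was 1.39 (SE 0.47) and not called (edgeR adjusted p = 0.192, and 0.0633 with the block). Pycr1 and Trib3 were the 2 of 10 genes whose groups did not overlap, 1 lower and 1 higher, where 12.9% and 11.3% of all genes tested did the same.

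The serine and one-carbon enzymes were not called in LK cells. Phgdh averaged 267 ± 75.0 CPM in LK KO and 291 ± 92.2 in LK WT, and Psat1, the second enzyme, 136 ± 39.8 in LK KO and 128 ± 37.1 in LK WT (SD, n = 3 each). For both, the spread between libraries of 1 genotype was larger than the difference between genotypes. Shmt2 had 159, 148 and 116 CPM in LK KO libraries A, B and C, against 219, 272 and 125 CPM in LK WT libraries A, B and C. It was lower in the KO library of each letter, and Psph showed the same order within letters with 21.2, 15.4 and 16.3 CPM in LK KO against 25.7, 27.7 and 18.1 CPM in LK WT. Neither difference was called (log2 fold change -0.54 ± 0.33 for Shmt2 and -0.44 ± 0.26 for Psph, value ± SE, edgeR adjusted p = 0.450 and 0.439). Mthfd2, Aldh18a1 and Asns had log2 fold changes of -0.04, 0.06 and 0.29, each with an SE of 0.23 to 0.26.

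The LK groups also differed in markers of cell type. Summed markers of granulocytes and monocytes (10 genes, all detected) were 3487 to 9933 CPM in LK KO and 9409 to 37962 in LK WT, ranges that overlap. Of these 10 genes edgeR called none, with 4 lower at an unadjusted p under 0.05 and 9 lower with the letter block. For mast cells, basophils and eosinophils (8 genes, all detected) the sums were 148 to 342 CPM in LK KO and 690 to 2142 in LK WT. Of these 8 genes edgeR called 3 lower and none higher. Summed macrophage markers (10 genes) were 108 to 232 CPM in LK KO and 250 to 324 in LK WT, and of the 6 tested edgeR called 2 lower. Of 7 erythroid markers 1 was called lower, of 6 megakaryocyte markers 1 higher, and of 3 endothelial and stromal markers 1 higher. Of 7 progenitor markers edgeR called none, with 1 lower at an unadjusted p under 0.05 and 1 higher and 1 lower with the letter block. Mpo, a granule enzyme, made up most of their sum with 5292 to 7923 CPM in LK KO and 10477 to 15861 in LK WT. Kit, Cd34, Gata2 and Flt3 were higher in the KO library of each letter. Myb was lower in KO in letter B (488 CPM, against 553 in WT) and higher in A and C. Ly6a was higher in KO in letter A and lower in B and C (0.468 and 0.426 CPM, against 1.62 and 0.641 in WT). The part of these differences in the values of Pycr1 and Chac1 was not tested. In such bulk samples fewer cells of a type and less RNA per cell cannot be told apart.

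In Ter119pos erythroid cells 5 of the 10 genes were called between KO and WT. Phgdh, Psph, Mthfd2 and Trib3 rose, and Aldh18a1, the first enzyme of proline synthesis, fell slightly. In this comparison 54.2% of the 15566 genes tested passed the threshold, 24.8% upwards and 29.3% downwards, so 5 of 10 called is close to the share of all genes. The balance of all genes turned to slightly more higher than lower calls with globin genes left out (4292 higher and 4136 lower) and with the Ter119pos libraries fitted alone (3987 higher and 3672 lower), against 3864 higher and 4566 lower here. The median log2 fold change was 0.13 over the 10 genes and -0.04 over all genes tested.

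Phgdh had 48.2 and 48.5 CPM in Ter119pos KO libraries A and B, against 21.1 and 28.4 CPM in Ter119pos WT libraries A and B. The groups were well apart, and the KO mean was 1.95-fold higher (log2 fold change 0.97, SE 0.14, edgeR adjusted p = 0.000108). Psph, the phosphatase of the last step of serine synthesis, had 12.8 and 9.66 CPM in Ter119pos KO, against 7.40 and 7.47 CPM in Ter119pos WT, a 1.52-fold difference (log2 fold change 0.60, SE 0.16, edgeR adjusted p = 0.00616). KO library A was the higher one, and without it the log2 fold change was 0.38 (edgeR adjusted p = 0.0958). The middle enzyme, Psat1, had 43.7 and 36.8 CPM in Ter119pos KO, against 29.9 and 37.4 CPM in Ter119pos WT, which overlapped (log2 fold change 0.26, SE 0.14, edgeR adjusted p = 0.135). Psat1 was called without WT library B (0.43, edgeR adjusted p = 0.0453) and when the Ter119pos libraries were fitted alone (0.44, edgeR adjusted p = 0.0297).

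The authors' counting split reads that match several places. Phgdh, which has a processed pseudogene (Phgdh-ps1), had fractional counts in 13 of 14 libraries and Psph in 12 of 14, so part of their counts is shared with other loci, while the other 8 genes had whole counts throughout. Psph and Shmt2 also overlap Cct6a and Ndufa4l2 on the opposite strand, and whether counting used strand is not given in the sources used here. Psat1, Mthfd2 and Aldh18a1 each overlap an unnamed gene model.

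Of the one-carbon pair, Mthfd2 rose and Shmt2 was level. Mthfd2, the mitochondrial folate dehydrogenase, had 145 and 154 CPM in Ter119pos KO, against 99.9 and 97.5 CPM in Ter119pos WT, a 1.51-fold difference with both KO libraries above both WT libraries (log2 fold change 0.60, SE 0.12, edgeR adjusted p = 0.000921). Shmt2, the enzyme just before it, had 78.4 and 68.0 CPM in Ter119pos KO, against 76.5 and 70.5 CPM in Ter119pos WT. The KO and WT libraries of Shmt2 interleaved, with a log2 fold change of -0.01 and an SE of 0.12 (edgeR adjusted p = 0.976).

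The proline and asparagine enzymes did not rise. Aldh18a1 had 37.2 and 29.2 CPM in Ter119pos KO, against 41.8 and 42.7 CPM in Ter119pos WT. Its difference (-0.34 on the log2 scale, SE 0.13, edgeR adjusted p = 0.0357) lost the call in 8 of the alternatives, among them leaving out KO library B (-0.18, edgeR adjusted p = 0.318), WT library A (-0.37, 0.0836) or WT library B (-0.33, 0.113), leaving out globin genes (-0.23, 0.166) and fitting the Ter119pos libraries alone (-0.16, 0.344). Pycr1 had 1.75 and 2.33 CPM in Ter119pos KO, against 2.35 and 2.47 CPM in Ter119pos WT (log2 fold change -0.25, SE 0.30, edgeR adjusted p = 0.504). Asns, the most abundant of the 10 genes per kilobase here, had 212 and 189 CPM in Ter119pos KO, against 218 and 212 CPM in Ter119pos WT (-0.10, SE 0.13, edgeR adjusted p = 0.534).

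Trib3 and Chac1 went opposite ways in Ter119pos cells. Trib3 had 7.35 and 6.30 CPM in Ter119pos KO, against 3.37 and 2.41 CPM in Ter119pos WT, and both KO libraries lay above both WT libraries (2.37-fold higher, log2 fold change 1.24, SE 0.27, edgeR adjusted p = 0.00193). Chac1 had 1.05 and 1.29 CPM in Ter119pos KO, against 3.25 and 1.59 CPM in Ter119pos WT, where the WT libraries differed from each other by more than the lower one did from the KO libraries. Its log2 fold change of -1.05 (SE 0.44) was not called (edgeR adjusted p = 0.0606), and was called without WT library B (-1.48, edgeR adjusted p = 0.0172), with no low count filter (-1.01, 0.0329) and with the trend on transcript length removed (-1.32, 0.0203). Over the 10 genes, 4 had both KO libraries above both WT libraries and 3 (Aldh18a1, Pycr1 and Chac1) below, where 35.8% and 39.8% of all genes tested were so separated.

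Markers of other cells also differed in the Ter119pos fraction. Summed hepatoblast markers (9 genes, none at 0) were 59.8 to 90.3 CPM in Ter119pos KO and 35.1 to 49.6 in Ter119pos WT, with 2 of 9 called higher. Endothelial and stromal markers (8 genes) had 4 called higher and 1 lower. The collagen gene Col1a1 had 2.73 and 9.40 CPM in Ter119pos KO, against 0.421 and 0.412 in Ter119pos WT, while Kdr, an endothelial growth factor receptor gene, had 1.54 and 1.73 in KO, against 2.04 and 2.94 in WT. Granulocyte and monocyte markers summed to 19.1 to 60.3 CPM in Ter119pos KO and 55.5 to 131 in Ter119pos WT, with 6 of 10 called lower, and of 7 megakaryocyte markers 4 were called higher and 2 lower. Of 7 erythroid markers 1 was called higher and 2 lower. Klf1 had 472 and 456 CPM in Ter119pos KO, against 311 and 275 in Ter119pos WT. The globin gene Hbb-bs had 131033 and 169547 CPM in Ter119pos KO, against 120695 and 108395 in Ter119pos WT. The globin gene Hba-a1 overlapped, with 51323 and 70126 in KO and 57497 and 47875 in WT. Slc4a1, the anion exchanger of red cells, had 5008 and 4263 in KO, against 14114 and 11758 in WT. Epor had 92.4 and 73.8 in KO, against 185 and 153 in WT. What part these have in the values of Phgdh, Psph, Mthfd2 and Trib3 was not tested.

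In the Ter119neg fraction 4 of the 10 genes were called between KO and WT. Mthfd2 and Trib3 rose, and Shmt2 and Pycr1 fell. Here 19.1% of all 15566 genes tested were called (9.57% higher and 9.55% lower). The median log2 fold change was -0.18 over the 10 genes and 0.01 over all genes tested.

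Pycr1 had 0.467 and 0.559 CPM in Ter119neg KO, from 17 and 21 counts, against 1.28 and 1.36 CPM in Ter119neg WT, from 66 and 57 counts. Both KO libraries were well below both WT libraries (2.56-fold lower, log2 fold change -1.36, SE 0.30, edgeR adjusted p = 0.00777), and without KO library A the log2 fold change was -1.26 (edgeR adjusted p = 0.0567). Shmt2 had 90.8 and 83.9 CPM in Ter119neg KO, against 120 and 116 CPM in Ter119neg WT, 1.35-fold lower in KO (log2 fold change -0.44, SE 0.12, edgeR adjusted p = 0.0204). The call of Shmt2 was lost without KO library B, WT library A or WT library B (-0.51 to -0.42, edgeR adjusted p = 0.0563 to 0.119).

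Mthfd2 had 36.7 and 40.0 CPM in Ter119neg KO, against 31.3 and 26.1 CPM in Ter119neg WT (1.34-fold higher, log2 fold change 0.42, SE 0.12, edgeR adjusted p = 0.0284). Trib3 had 0.770 and 0.638 CPM in Ter119neg KO, from 28 and 24 counts, against 0.331 and 0.191 CPM in Ter119neg WT, from 17 and 8 counts (2.62-fold higher, log2 fold change 1.39, SE 0.37, edgeR adjusted p = 0.0221). For both genes each KO library lay above each WT library. Both calls were lost without KO library A, KO library B or WT library B, where the edgeR adjusted p was 0.0786, 0.250 and 0.342 for Mthfd2 and 0.119, 0.0632 and 0.154 for Trib3. Mthfd2 and Trib3 were thus called higher in KO in both fetal fractions. The 2 fractions share mice 1, 2 and 4, so the 2 calls are not independent of each other. Of all genes tested, 24.8% were called higher in Ter119pos and 9.57% in Ter119neg cells, and the share called higher in both was not determined.

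The serine genes were lower in KO than in WT libraries of the Ter119neg fraction by amounts that were not called. Phgdh had 142 and 133 CPM in Ter119neg KO, against 167 and 153 CPM in Ter119neg WT, and Psat1 115 and 113 CPM in KO, against 143 and 128 CPM in WT. Psph had 13.9 and 15.2 CPM in Ter119neg KO, against 15.6 and 16.3 CPM in Ter119neg WT. In all 3 genes both KO libraries lay below both WT libraries, with log2 fold changes of -0.22, -0.25 and -0.13 and an SE of 0.13 each (edgeR adjusted p = 0.289, 0.205 and 0.530). Asns had 123 and 111 CPM in Ter119neg KO, against 106 and 97.6 CPM in Ter119neg WT (log2 fold change 0.20, SE 0.12, edgeR adjusted p = 0.3003). Aldh18a1 had a log2 fold change of -0.14 (SE 0.12) and Chac1, with 7 to 19 counts per library, one of -0.27 (SE 0.51). With Shmt2, Pycr1 and Aldh18a1, 6 of the 10 genes had both KO libraries below both WT libraries and 3 had them above, where 31.0% and 31.5% of all genes tested did.

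The Ter119neg groups differed most in macrophage markers, of which 10 of 10 genes were called lower in KO. Their summed level was 32.2 to 35.7 CPM in Ter119neg KO and 138 to 147 in Ter119neg WT. Summed hepatoblast markers (9 genes) were 139 to 287 CPM in Ter119neg KO and 302 to 490 in Ter119neg WT. Progenitor markers summed to 664 to 669 in KO and 1032 to 1035 in WT, with 4 of 7 called lower and none higher. Mpo made up most of that sum (366 and 398 in KO, against 702 and 719 in WT), while Kit and Myb overlapped. Erythroid markers summed to 571 to 945 in KO and 339 to 393 in WT, with 4 of 7 called higher and none lower. Hbb-bs and Hba-a1 made up most of that sum. Klf1 overlapped, and Epor was not higher in KO (28.4 and 25.2, against 29.4 and 28.4 in WT). The part of these cell types in the values of Pycr1, Shmt2, Mthfd2 and Trib3 was not tested.

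**Figure D2:**
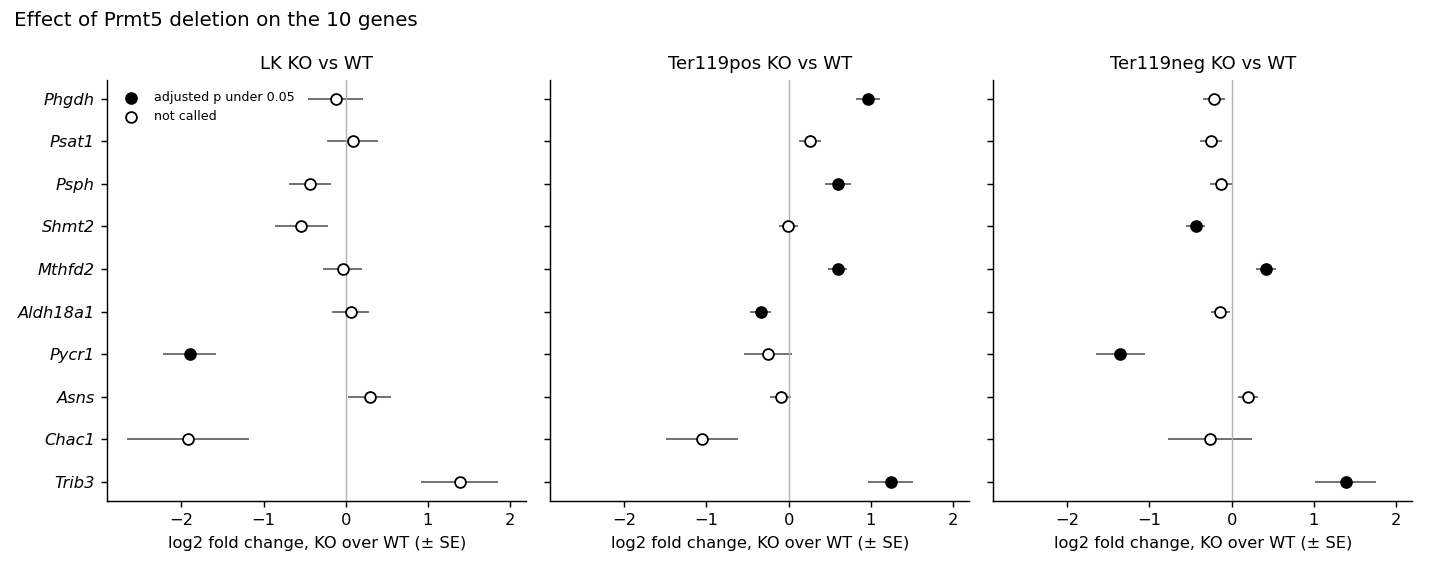
Log2 fold change of each of the 10 genes, KO over WT, with its SE, in LK, Ter119pos and Ter119neg cells. Filled points are called at an adjusted p under 0.05 and open points are not. Trib3 lies right of 0 in all 3 panels (1.39, 1.24 and 1.39), Phgdh right of 0 in Ter119pos cells (0.97), and Pycr1 left of 0 in LK (-1.90) and Ter119neg cells (-1.36). The LK point of Trib3 is a description only, since Trib3 passed the low count filter there through the KO libraries alone.

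The KO effect was then compared between the 2 fetal fractions as an interaction, that is, the KO over WT log2 fold change in Ter119pos minus that in Ter119neg. It was called for 3 of the 10 genes, all 3 higher, and these were the 3 enzymes of serine synthesis, Phgdh, Psph and Psat1. Of all 15566 genes tested, 41.7% were called (19.3% higher and 22.4% lower). For Phgdh the KO effect was 0.97 in Ter119pos and -0.22 in Ter119neg cells, a difference of 1.18 (SE 0.20, edgeR adjusted p = 0.000515). For Psph it was 0.60 in Ter119pos and -0.13 in Ter119neg cells, a difference of 0.74 (SE 0.21, edgeR adjusted p = 0.0126), and without Ter119pos KO library A 0.51 (edgeR adjusted p = 0.0733).

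Psat1 stood at the threshold. Its KO effect was 0.26 in Ter119pos and -0.25 in Ter119neg cells, a difference of 0.51 (SE 0.19, edgeR adjusted p = 0.0475), which became 0.28 (edgeR adjusted p = 0.160) with the mouse as a block. The call was also lost without Ter119neg KO library B, Ter119neg WT library A, Ter119pos KO library A or Ter119pos WT library A (0.36 to 0.66, edgeR adjusted p = 0.0505 to 0.188). Shmt2 (0.43, SE 0.16, edgeR adjusted p = 0.0536) and Pycr1 (1.10, SE 0.42, edgeR adjusted p = 0.0528) lay just beyond the threshold on the same side. With the mouse block Shmt2 was called (0.46, edgeR adjusted p = 0.0124) and Pycr1 was not (1.12, edgeR adjusted p = 0.152). For Mthfd2 the difference was 0.18 (SE 0.17, edgeR adjusted p = 0.416) and for Trib3 -0.15 (SE 0.43, edgeR adjusted p = 0.816). Asns (-0.30, SE 0.18), Aldh18a1 (-0.20, SE 0.17) and Chac1 (-0.78, SE 0.69) were not called. With the mouse as a block the WT side rests on mouse 4 alone, since mice 3 and 5 gave 1 library each.

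The 10 genes divided evenly when Ter119pos cells were set against Ter119neg cells. These fractions differ in cell type as well as in erythroid maturation. In WT, granulocyte and monocyte (10 of 10), mast cell, basophil and eosinophil (8 of 8), hepatoblast (9 of 9), macrophage (7 of 10) and lymphoid markers (6 of 7) were called lower in Ter119pos cells. In KO those counts were 10 of 10, 7 of 8, 7 of 9, 2 of 10 (with 7 macrophage markers higher) and 5 of 7. The part of these cell types in the values of the 10 genes was not tested. In WT all 10 were called, 5 higher and 5 lower in Ter119pos, where 76.3% of the 15566 genes tested passed the threshold, 35.9% upwards and 40.4% downwards. In KO 9 of 10 were called, 5 higher and 4 lower, against 62.6% of all genes (30.3% higher and 32.3% lower). Both comparisons use the same libraries as those of KO with WT, so their values are given side by side only. Apart from Mthfd2, the serine, glycine and one-carbon enzymes and Aldh18a1 were the lower ones, and Asns, Mthfd2, Pycr1, Chac1 and Trib3 the higher ones. In both genotypes the libraries of the 2 fractions did not overlap for any of the 10 genes, where 37.9% (KO) and 41.0% (WT) of all genes tested were separated upwards and 44.0% (KO) and 48.2% (WT) downwards.

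Phgdh had the lowest log2 fold change of the 10 in WT, and in KO it could not be ordered against Psat1 and Aldh18a1, which lay within an SE of it. In KO Phgdh had 48.2 and 48.5 CPM in Ter119pos against 142 and 133 CPM in Ter119neg (2.85-fold lower, log2 fold change -1.51, SE 0.14, edgeR adjusted p = 1.38e-06). In WT it had 21.1 and 28.4 CPM in Ter119pos against 167 and 153 CPM in Ter119neg (6.47-fold lower, -2.69, SE 0.15, edgeR adjusted p = 5.5e-09). The next enzyme, Psat1, was 2.82-fold lower in KO (-1.50, SE 0.14) and 4.03-fold lower in WT (-2.01, SE 0.14). Psph was 1.29-fold lower in KO (-0.37, SE 0.14, edgeR adjusted p = 0.0419) and 2.15-fold lower in WT (-1.10, SE 0.15). The small KO difference of Psph lost its call without Ter119neg KO library A, Ter119neg KO library B or Ter119pos KO library B (-0.34 to -0.19, edgeR adjusted p = 0.145 to 0.381) and with the length trend removed (-0.16, edgeR adjusted p = 0.358). Shmt2 had a log2 fold change of -0.25 in KO (SE of 0.12, edgeR adjusted p = 0.0765, and 0.0104 with the mouse as a block) and of -0.68 in WT (SE 0.12, edgeR adjusted p = 0.000170). Aldh18a1 was 2.64-fold lower in KO and 2.29-fold lower in WT.

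Trib3 and Chac1 rose, Trib3 with the highest log2 fold change of the 10 in both genotypes. Trib3 averaged 6.82 ± 0.744 CPM in Ter119pos KO and 0.704 ± 0.0929 in Ter119neg KO (9.67-fold, log2 fold change 3.27, SE 0.29), and 2.89 ± 0.675 CPM in Ter119pos WT and 0.261 ± 0.0989 in Ter119neg WT (10.7-fold, 3.42, SE 0.34; SD, n = 2 each). Chac1 was 4.06-fold higher in Ter119pos KO (2.02, SE 0.52, edgeR adjusted p = 0.00468) and 6.99-fold higher in Ter119pos WT (2.81, SE 0.43, edgeR adjusted p = 7.08e-05). The more abundant enzymes rose too. Mthfd2 had 145 and 154 CPM in Ter119pos KO against 36.7 and 40.0 CPM in Ter119neg KO (3.89-fold), and 99.9 and 97.5 CPM in Ter119pos WT against 31.3 and 26.1 CPM in Ter119neg WT (3.44-fold). Asns was 1.72-fold higher in Ter119pos KO (0.78, SE 0.13) and 2.11-fold higher in Ter119pos WT (1.08, SE 0.13). Pycr1 was 3.92-fold higher in Ter119pos KO (1.97, SE 0.33, edgeR adjusted p = 0.000192) and 1.82-fold higher in Ter119pos WT (0.86, SE 0.27, edgeR adjusted p = 0.0116). The WT call of Pycr1 was lost with the mouse as a block (0.86, edgeR adjusted p = 0.102) and without Ter119neg WT library A, Ter119neg WT library B or Ter119pos WT library B (0.76 to 0.83, edgeR adjusted p = 0.0519 to 0.0788).

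**Figure D3:**
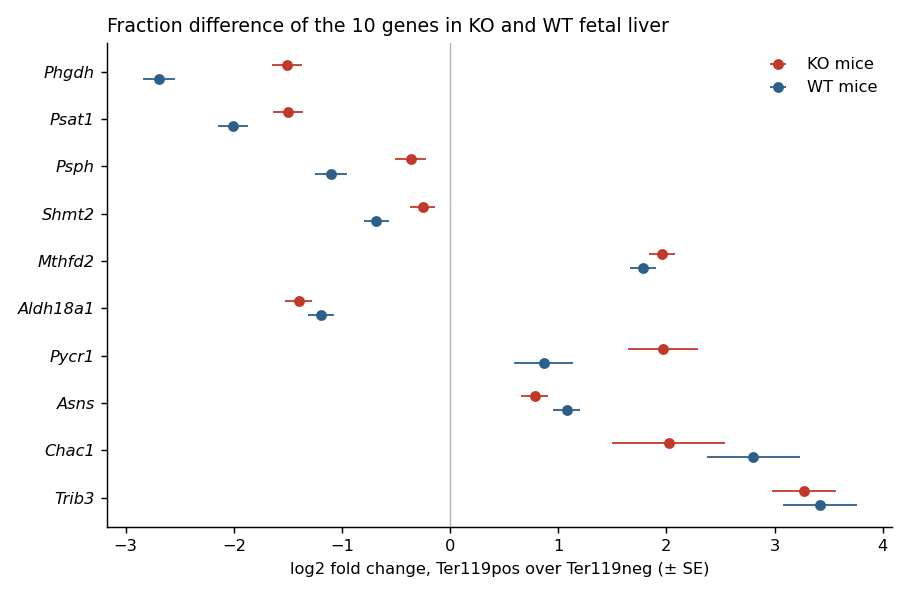
Log2 fold change of each of the 10 genes, Ter119pos over Ter119neg, with its SE, in KO (red) and WT (blue) fetal liver. Points left of 0 are lower in Ter119pos cells. Phgdh (-1.51 in KO and -2.69 in WT) and Pycr1 (1.97 in KO and 0.86 in WT) move between the genotypes by amounts that cannot be ordered. Trib3 lies farthest right in both genotypes (3.27 in KO and 3.42 in WT).

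The regulators of the pathway are set beside its outputs. Of all genes tested, 54.2% were called between KO and WT in Ter119pos, 19.1% in Ter119neg and 1.82% in LK cells. These shares apply to every related list below. A list of 11 genes of the integrated stress response, with Atf4, the eIF2 kinases and the eIF2 phosphatase subunits, had 4 called higher and 5 called lower in Ter119pos KO against WT (median log2 fold change -0.28 over the list and -0.04 over all genes tested). Atf4 itself averaged 131 ± 7.97 CPM in Ter119pos KO and 230 ± 3.16 in Ter119pos WT, and Eif2ak1 357 ± 11 in Ter119pos KO and 738 ± 87.1 in Ter119pos WT (SD, n = 2 each). Both fell (log2 fold change -0.81 ± 0.12 and -1.05 ± 0.14, value ± SE, edgeR adjusted p = 7.73e-05 and 5.12e-05), as did Eif2ak2, the kinase that senses double-stranded RNA (-1.82 ± 0.25). Eif2b5, a subunit of the exchange factor for eIF2, rose (0.80 ± 0.12). The transcript of Atf4 thus fell in the same libraries in which Phgdh, Psph, Mthfd2 and Trib3 rose. ATF4 is set largely by translation, which these counts do not show.

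In Ter119neg cells Atf4 averaged 47.1 ± 1.75 CPM in KO and 57.8 ± 3.78 in WT, and the difference was not called (-0.30 ± 0.12, edgeR adjusted p = 0.0977). Of the same 11 genes 1 rose, Ppp1r15a (0.50 ± 0.15), which encodes an eIF2 phosphatase subunit, and 1 fell, Eif2b5 (-0.56 ± 0.11). With any 1 of the 4 Ter119neg libraries left out, none was called higher. In LK cells edgeR called none of the 11 (none at an unadjusted p under 0.05, none by DESeq2 and 2 higher with the letter block), and the smallest p was that of Impact, an inhibitor of amino acid sensing (0.71 ± 0.31, edgeR adjusted p = 0.289). Between the fractions, in KO 7 of 11 were called higher in Ter119pos than in Ter119neg cells and 3 lower, and in WT 6 higher and 3 lower. Of all genes tested, 62.6% were called in KO (30.3% higher and 32.3% lower) and 76.3% in WT (35.9% higher and 40.4% lower). Atf4 was higher in Ter119pos cells by a log2 fold change of 1.48 ± 0.12 in KO and 1.99 ± 0.12 in WT, and Eif2ak1 by 3.26 ± 0.16 in KO and 4.43 ± 0.16 in WT.

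Further known targets of ATF4 (20 genes, 19 tested in fetal and 17 in LK libraries) gave 8 called higher and 2 lower in Ter119pos KO against WT. That is 52.6% called, against 54.2% of all genes tested (24.8% higher and 29.3% lower). The median of these targets was 1.21, against -0.04 over all genes tested. Without KO library B 5 of them were called higher. Sesn2, an mTORC1 inhibitor, averaged 150 ± 20.6 CPM in Ter119pos KO and 10.6 ± 0.708 in Ter119pos WT (log2 fold change 3.82 ± 0.17, edgeR adjusted p = 2.43e-08), and Ddit4, another one, 12.6 ± 2.12 in KO and 0.178 ± 0.00272 in WT (6.10 ± 0.32). The WT level of Ddit4 rests on very few counts per library, so the size of its fold change is imprecise and its WT SD uninformative. Sesn2 and Ddit4 are also known targets of p53. Eif4ebp1, a translation repressor, rose (1.71 ± 0.15), and Cebpg, a dimer partner of ATF4, fell (-1.91 ± 0.15). In Ter119neg cells 2 rose, again Ddit4 (3.08 ± 0.19) and Sesn2 (2.25 ± 0.16), and 1 fell, the alanine aminotransferase Gpt2 (-1.05 ± 0.29). None was called lower there without KO library A, WT library A or WT library B. In LK cells 1 of 17 was called, Sesn2, with 71.2 ± 5.81 CPM in LK KO and 9.97 ± 1.86 in LK WT (2.84 ± 0.24, edgeR adjusted p = 0.00323), and with the letter block 4 were called higher and 2 lower. Without WT library B 3 were called higher, and without both C libraries none was.

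Of 13 amino acid transporters, 9 fell in Ter119pos KO cells and none rose, where 29.3% of all genes tested fell (median -0.78, against -0.04 over all genes tested). Slc1a5, a glutamine and neutral amino acid transporter, averaged 116 ± 16.8 CPM in Ter119pos KO and 555 ± 90.7 in Ter119pos WT (log2 fold change -2.26 ± 0.16, edgeR adjusted p = 2.85e-07). Slc7a5, the large neutral amino acid transporter, averaged 99.0 ± 15.8 CPM in Ter119pos KO and 308 ± 52.9 in Ter119pos WT (-1.63 ± 0.17), and Slc7a1, a transporter of arginine and lysine, and Slc43a1 fell as well (-1.33 ± 0.15 and -1.19 ± 0.14). In Ter119neg cells 4 of 13 were called lower and none higher (median -0.25, against 0.01), namely Slc38a2 (-0.49 ± 0.10), Slc1a4 (-0.74 ± 0.19), Slc1a5 (-0.54 ± 0.15) and Slc7a1 (-0.48 ± 0.14), and 1 of 13 without KO library B or without WT library A. In LK cells edgeR called none of 12. At an unadjusted p under 0.05 it had 2 lower, DESeq2 called 1 lower, and 2 were lower with the letter block. Slc1a5, with 82.5 ± 8.60 CPM in LK KO and 160 ± 49.8 in LK WT, had a log2 fold change of -0.96 ± 0.28 (edgeR adjusted p = 0.143, and 0.0102 with the block).

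Of 13 other genes of proline, aspartate and glutamine metabolism, 8 rose and 1 fell in Ter119pos KO cells (median 0.73, against -0.04 over all genes tested). Aldh4a1, which oxidises proline products to glutamate, averaged 29.3 ± 0.663 CPM in Ter119pos KO and 5.27 ± 0.627 in Ter119pos WT (log2 fold change 2.47 ± 0.14). Asl and Ass1 of the urea cycle rose too (1.76 ± 0.15 and 2.23 ± 0.23). In Ter119neg cells 2 of 13 rose, Aldh4a1 (1.39 ± 0.11) and Ass1 (0.74 ± 0.13), and 1 fell, Asl (-0.41 ± 0.13), a call lost without any 1 of the 4 Ter119neg libraries. In LK cells edgeR called none. At an unadjusted p under 0.05 it had 1 higher and 3 lower, DESeq2 called 1 higher and 2 lower, and the letter block gave 1 higher and 3 lower.

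Of other folate and glycine genes 3 of 14 were called higher and 3 lower in Ter119pos KO against WT, where 24.8% of all genes tested were called higher and 29.3% lower. Mthfd1l, which acts right after Mthfd2 in mitochondria, averaged 32.8 ± 1.79 CPM in Ter119pos KO and 66.2 ± 3.87 in Ter119pos WT and fell (log2 fold change -1.01 ± 0.12, edgeR adjusted p = 1.18e-05), as did methionine synthase, Mtr (-0.78 ± 0.11). Gcsh of the glycine cleavage system and Mthfd2l, a relative of Mthfd2, rose (1.07 ± 0.20 and 0.98 ± 0.24). In Ter119neg cells 2 of 14 were called higher and 3 lower, among them Shmt1, the cytosolic counterpart of Shmt2 (19.6 ± 3.46 CPM in Ter119neg KO and 32.9 ± 2.01 in Ter119neg WT, -0.75 ± 0.13). These counts were 1 higher and 1 lower without KO library B, WT library A or WT library B, and 1 higher and 2 lower without KO library A. In LK cells edgeR called none of 12 (1 higher at an unadjusted p under 0.05, none by DESeq2), and 3 were higher with the letter block.

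Cytosolic aminoacyl-tRNA synthetases, which charge tRNAs with amino acids and of which several are ATF4 targets, gave 3 called higher and 7 lower of 20 in Ter119pos KO against WT (median -0.17, against -0.04 over all genes tested). That total of 50% called is near the 54.2% of all genes tested (24.8% higher and 29.3% lower). Nars, the synthetase for asparagine, averaged 584 ± 87.5 CPM in Ter119pos KO and 257 ± 17.1 in Ter119pos WT (log2 fold change 1.19 ± 0.15, edgeR adjusted p = 2.64e-05), and Qars, that for glutamine, rose by 1.09 ± 0.11. Gars and Iars, for glycine and isoleucine, fell (-0.68 ± 0.12 and -0.63 ± 0.14). The balance of this list moved with the scaling: 5 were called higher and 6 lower with globin genes left out, and 8 higher and 6 lower when the Ter119pos libraries were fitted alone. In Ter119neg cells 1 of 20 was called, Vars (-0.41 ± 0.12), lost without any 1 of the 4 libraries, and in LK cells edgeR called none, at an unadjusted p under 0.05 or with the letter block either, nor did DESeq2.

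**Figure D4:**
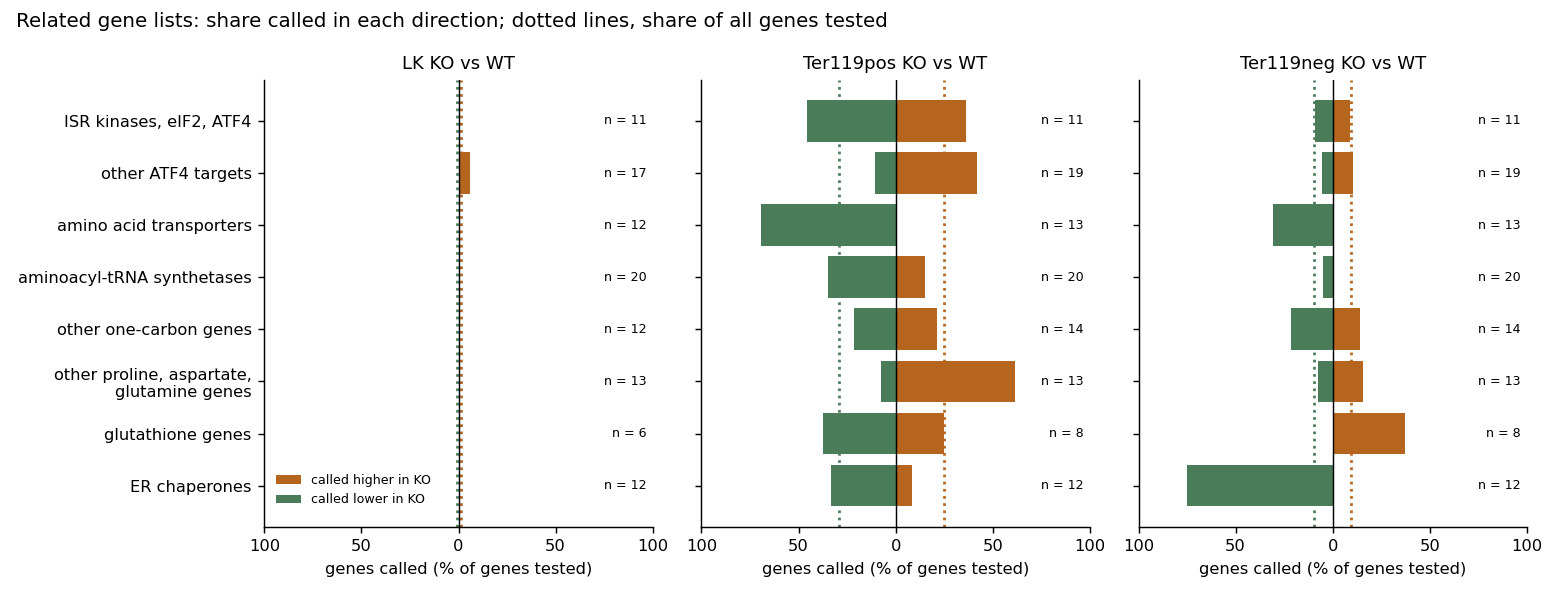
Share of genes called higher (brown, to the right) and lower (green, to the left) in KO against WT for 8 related lists in LK, Ter119pos and Ter119neg cells, with the number of genes tested at the right of each bar. Dotted lines mark the share of all genes tested that were called in that direction. Amino acid transporters extend only to the lower side in both fetal fractions (9 and 4 of 13), and 9 of 12 ER chaperones do so in Ter119neg cells.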

How the data were processed

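RNA was taken up in Trizol (fetal liver) or with a column kit (LK cells) and sequenced from stranded total RNA libraries, with ribosomal RNA removal named for the fetal samples, per the labels' protocols. The authors used STAR 2.5.3, RSEM and GRCm38 (mm10), per the submitters' processing notes. Neither the version of RSEM nor the gene annotation is given in the sources used here. Per gene, the deposited unit is the expected count, in which RSEM divides a read that matches several loci among them. GENCODE M21, which held 45143 of the 45706 identifiers, gave coordinates and transcript lengths.

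Expected counts were rounded and tested by edgeR 4.0.16 in R 4.3.3 (quasi-likelihood F test, TMM normalisation, filterByExpr with a minimum count of 10), in 1 model of the 8 fetal libraries and 1 of the 6 LK libraries, since tissue and RNA kit differ. Within each of 6 comparisons the p-values of all genes were adjusted together (Benjamini-Hochberg) and called under 0.05. An SE is the size of the log2 fold change over the square root of its F value. CPM are TMM-normalised within each table, so LK and fetal levels are on separate scales. The 10 genes and the 9 related lists were chosen with earlier results of these data known. Of each list up to 4 genes with the smallest p per comparison could be named, called or not.

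LK libraries of the same letter had correlated deviations from their group means (r of 0.604, 0.719 and 0.730), so the letter block stands beside LK results where it changes a call. The labels do not say what a letter shares. Across fractions, KO libraries are paired by mice 1 and 2 (r of 0.155) and WT by mouse 4 alone. The WT fraction difference with the mouse as a block, and the WT side of the interaction so fitted, therefore rest on mouse 4. Alternatives were another normalisation (RLE), keeping low counts, limma-voom (limma 3.58.1), DESeq2 1.42.0, leaving out globin genes, removing a lowess trend (span 0.3) on transcript length, a model per fraction, the blocks, and leaving out libraries. Where a group kept 1 library, it was assumed to vary like the others.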

Additional observations from a re-analysis of the deposited data

Results flagged for a closer look

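The effect of Prmt5 deletion differed between the fetal fractions for the 3 enzymes of serine synthesis, as tested by the difference of the log2 fold changes, Ter119pos minus Ter119neg, in which 41.7% of all genes tested were called. The difference was 1.18 for Phgdh (edgeR adjusted p = 0.000515), 0.74 for Psph (edgeR adjusted p = 0.0126, and 0.0733 without Ter119pos KO library A) and 0.51 for Psat1 (edgeR adjusted p = 0.0475, and 0.28 with an adjusted p of 0.160 with the mouse as a block). Psat1 also lost its call without Ter119neg KO library B, Ter119neg WT library A, Ter119pos KO library A or Ter119pos WT library A. Each had a KO over WT value above 0 in Ter119pos cells and below 0 in Ter119neg cells.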

How the results depend on the processing

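Of 60 results (10 genes in 6 comparisons), 32 were called. All 32 kept their direction under every alternative run, and 21 also kept the call. Of the 28 not called, 6 gained a call under some alternative and 8 changed sign. In LK cells 250 genes were called by edgeR, 1074 by DESeq2, 489 with the length trend removed, 3129 with the letter as a replicate block, 71 without both B libraries, 14 without both C libraries and 33 to 268 with 1 library left out, so LK counts depend on these choices. With the block 43.6% of called LK genes were higher, against 63.6% without it. Of the 10 genes 2 were called there with the block, 0 without both B or both C libraries and 0 to 1 with 1 library left out. In Ter119neg cells 2976 genes were called, and 1450 to 1788 with 1 library left out, with 1 to 3 of the 10 genes. The interaction called 5 of the 10 genes with RLE normalisation, with globin genes removed or with a random mouse effect, and 2 of them with the length trend removed or without Ter119neg KO library B, Ter119pos KO library A or Ter119pos WT library A. The median log2 fold change of all genes moved from -0.0048 to 0.12 in the interaction with globin genes removed, and in Ter119pos against Ter119neg from -0.12 to 0.02 in KO and -0.19 to -0.05 in WT with the length trend removed.

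Sign changes were of values near 0 that were not called, and the cause was not tested. In LK cells Mthfd2 had 0.12 and Phgdh 0.10 with the length trend removed, Mthfd2 0.051 without both C libraries and Phgdh 0.10 without both B libraries. With 1 library left out, the LK values ranged from -0.059 to 0.29 for Aldh18a1, -0.19 to 0.082 for Mthfd2, -0.38 to 0.11 for Phgdh and -0.17 to 0.38 for Psat1. Chac1 in Ter119neg cells ranged from -0.86 to 0.094, and the Trib3 interaction from -0.46 to 0.33. In Ter119pos cells Shmt2 had 0.027 with no low count filter, 0.10 with globin genes removed, 0.18 in a model of that fraction alone and -0.11 to 0.10 with 1 library left out, and Asns 0.0086 with globin genes removed and 0.081 in a model of that fraction alone. Fetal KO and WT libraries with the same letter come from different mice (r of 0.00472 in Ter119neg and -0.0288 in Ter119pos). With that replicate block Shmt2 had 0.17 and Asns 0.079 in Ter119pos cells, Psat1 gained a call (edgeR adjusted p = 0.0265) and Aldh18a1 lost its own (edgeR adjusted p = 0.281). Trib3, Chac1 and Pycr1 rest on few counts, which limits their precision, and 2 libraries a group limit that of all fetal values.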

Other observations

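ER chaperones, which fold proteins in the secretory pathway and rise in the unfolded protein response, had lower values in KO in Ter119neg cells. Of 12 genes 9 were called lower and none higher (median log2 fold change -0.43, against 0.01 over all genes tested). Calreticulin, Calr, averaged 189 ± 9.45 CPM in Ter119neg KO and 278 ± 36.2 in Ter119neg WT (-0.56, SE 0.13, edgeR adjusted p = 0.0129), Hsp90b1 125 ± 7.74 in KO and 182 ± 7.77 in WT (-0.54, SE 0.13), and Sdf2l1 13.3 ± 2.14 in KO and 21 ± 1.16 in WT (-0.66, SE 0.13; SD, n = 2 each). Leaving out KO library A left 2 called lower, KO library B 4, WT library A 3 and WT library B 5. In LK cells edgeR called none of the 12 (4 lower at an unadjusted p under 0.05 and 2 by DESeq2), and 7 were called lower with the letter block (median -0.52, against -0.09). In Ter119pos cells 4 fell and 1 rose, Dnajb9, with 12.7 ± 1.97 CPM in KO and 3.15 ± 0.373 in WT (2.00, SE 0.19).

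Glutathione genes, beside Chac1, had 3 of 8 called higher in Ter119neg KO cells, among them Gss, glutathione synthetase, with 20.98 ± 0.0319 CPM in KO and 13.5 ± 0.770 in WT (0.63, SE 0.10). That number was 2 without either KO library and 1 without either WT library. In Ter119pos KO cells 2 rose and 3 fell, near the 54.2% of all genes called there, with Chac2, the relative of Chac1, at 63.9 ± 2.30 CPM in KO and 105 ± 13.3 in WT (-0.72, SE 0.14), and Gss at 123 ± 5.19 in KO and 89.1 ± 2.22 in WT (0.46, SE 0.10). Of genes that break down serine and glycine, Sdsl, a serine dehydratase-like gene, was called higher in Ter119pos KO (0.407 ± 0.279 CPM in KO and 0.0294 ± 0.0416 in WT) and in Ter119neg KO (0.781 ± 0.288 in KO and 0.130 ± 0.0187 in WT), at levels of under 1 CPM. Sdsl passed the low count filter through the Ter119neg KO libraries alone, where it was highest. Its values are therefore a description only.

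The genes whose log2 CPM followed the mean standardised profile of the 10 genes most closely, counting genes that averaged 5 CPM or more, were Zdhhc7, Tssc4, Gipc1, Armc5 and Ergic3 over the 8 fetal libraries (Pearson r of 0.828 to 0.907) and Drg1, Pdhb, Snrnp40, Ctdp1 and Mcm2 over the 6 LK libraries (0.989 to 1.000). These are the highest of 8354 and 10078 genes and a description only, since the 7 of the 10 genes that averaged 5 CPM or more in fetal libraries followed that mean loosely themselves, with r of -0.0594 for Asns to 0.430 for Shmt2. Over the fetal libraries Asns, Mthfd2, Pycr1, Chac1 and Trib3 varied together (r of 0.579 to 0.987). So did Phgdh, Psat1, Psph, Shmt2 and Aldh18a1 (0.767 to 0.975). Between these sets r was -0.988 to -0.407, so the fetal mean largely cancels the 2 patterns.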
